A study of Mus musculus with 23 samples.

Results

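Kupffer cells are the resident macrophages of the liver, and 10 genes that mark them, or mark macrophages loaded with lipid, were followed through a liver RNA sequencing study of 23 mice. The genes were taken by symbol from a list, with no threshold on their values; the list was drawn up with earlier results of these data known. They were Clec4f, Vsig4, Timd4, Marco, Cd5l, Lyz2, Gpnmb, Cd68, Trem2 and Lgals3. All 10 were listed among the 24062 genes of the deposited tables, and all 10 passed the filter on low counts that kept 14196 genes for testing. The mice were B6/129, and whole liver was sequenced. The groups were 5 Ehhadh knockout (KO) mice given L-AC (28 to 38 weeks old), 6 wild-type (WT) mice given L-AC (28 to 44 weeks), 5 KO mice given saline (31 to 44 weeks) and 7 WT mice given saline (29 to 45 weeks). Ehhadh encodes the peroxisomal bifunctional enzyme of fatty acid β-oxidation. The labels give L-AC only by its abbreviation. Dose, duration and the deleted part of Ehhadh are not given in the sources used here. The design addresses how the liver responds to L-AC with and without Ehhadh.

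Kupffer cells line the liver sinusoids, where they clear particles, dying cells and complement-coated bacteria from the blood. In steatotic liver some macrophages take up lipid and turn on genes of lysosomes and lipid handling, a state often called lipid-associated and marked by Gpnmb and Trem2. Clec4f, Vsig4, Timd4 and Marco are receptors at the Kupffer cell surface, and Cd5l and Lyz2 encode secreted proteins. Gpnmb and Cd68 encode membrane glycoproteins of lysosomes and phagosomes, Trem2 a lipid-sensing receptor, and Lgals3 a galactoside-binding lectin.

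Each mouse gave 1 library, with 24521896 to 48095959 reads counted to genes. Levels are CPM, counts scaled to a library of fixed size after TMM scaling, given as mean ± SD over mice. Ehhadh, the deleted gene, had 1421 to 2144 CPM in KO L-AC livers and 10260 to 14650 CPM in WT L-AC livers. It had 90.9 to 252.9 CPM in KO saline livers and 634.8 to 1635 CPM in WT saline livers. The KO libraries therefore lay below the WT libraries under each treatment, although reads over Ehhadh were counted in every KO library. The macrophage genes Adgre1, Csf1r, C1qa, C1qb and C1qc were read in all libraries. KO L-AC replicate 3 stood apart for Gpnmb, Cd68 and Lgals3, and values that it moves are given without it too. In WT saline livers, replicates 4, 6 and 7 were the 3 highest for Clec4f, Vsig4, Timd4, Cd5l and Lyz2.

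The promoters of 5 of the genes are shown because these were the genes called under L-AC in both genotypes, Vsig4, Cd5l and Lyz2 lower and Gpnmb and Cd68 higher, as described after them. Each is 250 bases before to 50 bases after the gene's start, from RefSeq on GRCm38.p6, written along the gene's own strand. The windows are chrX:96293389-96293688 on the minus strand for Vsig4, chr3:87357631-87357930 on the plus strand for Cd5l, chr10:117282223-117282522 on the minus strand for Lyz2, chr6:49036268-49036567 on the plus strand for Gpnmb and chr11:69666121-69666420 on the minus strand for Cd68. Capitals mark GAGGAA or its reverse complement, a short core of sites bound by PU.1, a factor that myeloid cells need.
Vsig4: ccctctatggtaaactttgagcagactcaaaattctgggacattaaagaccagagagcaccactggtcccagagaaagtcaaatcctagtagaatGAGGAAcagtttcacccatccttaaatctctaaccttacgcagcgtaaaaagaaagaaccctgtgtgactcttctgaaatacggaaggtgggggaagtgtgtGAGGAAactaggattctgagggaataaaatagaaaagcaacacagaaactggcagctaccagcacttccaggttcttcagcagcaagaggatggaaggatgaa
Cd5l: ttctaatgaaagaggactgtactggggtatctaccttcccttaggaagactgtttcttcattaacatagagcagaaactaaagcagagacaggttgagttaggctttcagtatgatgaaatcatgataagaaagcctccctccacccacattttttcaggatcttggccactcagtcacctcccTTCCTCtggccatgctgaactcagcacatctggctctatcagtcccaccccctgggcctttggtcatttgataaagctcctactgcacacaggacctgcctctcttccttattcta
Lyz2: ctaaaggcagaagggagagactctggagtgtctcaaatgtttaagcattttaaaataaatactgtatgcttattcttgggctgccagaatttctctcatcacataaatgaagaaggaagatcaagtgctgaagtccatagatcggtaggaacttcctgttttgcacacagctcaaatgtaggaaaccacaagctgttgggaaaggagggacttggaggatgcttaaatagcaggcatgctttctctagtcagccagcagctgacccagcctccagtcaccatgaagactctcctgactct
Gpnmb: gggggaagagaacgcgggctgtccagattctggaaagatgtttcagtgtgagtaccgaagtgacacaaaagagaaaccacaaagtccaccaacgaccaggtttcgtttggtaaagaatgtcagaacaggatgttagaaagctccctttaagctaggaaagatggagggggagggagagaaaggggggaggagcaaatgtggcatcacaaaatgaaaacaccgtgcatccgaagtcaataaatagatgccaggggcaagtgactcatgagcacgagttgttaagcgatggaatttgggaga
Cd68: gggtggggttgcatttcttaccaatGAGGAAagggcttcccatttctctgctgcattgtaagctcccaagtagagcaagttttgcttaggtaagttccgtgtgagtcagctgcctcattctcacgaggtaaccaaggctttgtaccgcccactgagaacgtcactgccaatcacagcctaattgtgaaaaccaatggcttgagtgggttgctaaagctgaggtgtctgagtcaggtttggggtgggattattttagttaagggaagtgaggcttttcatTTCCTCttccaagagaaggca
GAGGAA was found on either strand in 5 of the 10 promoters (Vsig4, Marco, Cd5l, Cd68 and Trem2) and in 28.3% of 32851 promoter windows of the same length. Of the 5 shown, Lyz2 and Gpnmb held no match. The longer GAGGAAG, which overlaps it, was in 3 of the 10 (Marco, Cd5l and Trem2) and in 13.6% of all windows. CACGTG, the E-box bound by the lysosomal MiT/TFE factors, was in 0 of the 10 and 7.15% of all windows. TCATGTG, the M-box of MITF, was in 0 of the 10 and 3.77%. These matches describe letters in a window, not bound sites.

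Compared per gene length, as TPM, which scales counts by gene length and library, Cd5l, Lyz2 and Clec4f led in the saline livers. Cd5l averaged 34.9 ± 15.3 TPM in KO saline and 33.5 ± 18.8 TPM in WT saline livers. Lyz2, the macrophage lysozyme, averaged 33.5 ± 9.2 TPM in KO saline and 35.3 ± 18.3 TPM in WT saline livers, and Clec4f 24.3 ± 2.1 and 29.0 ± 16.9 TPM in the same groups. The ranges of these 3 genes overlapped in each saline group, and each lay clear of Vsig4, which came next. Gpnmb and Trem2 were the lowest in both saline groups, at 0.27 ± 0.29 TPM for Gpnmb and 0.27 ± 0.21 TPM for Trem2 in KO saline and 0.17 ± 0.07 and 0.44 ± 0.20 TPM in WT saline livers. Under L-AC the order of the levels was different. Cd68 averaged 37.1 ± 43.5 TPM in KO L-AC livers, the highest mean of the 10, although its range overlapped that of Cd5l. That mean rests on replicate 3: the other 4 KO L-AC livers averaged 17.9 ± 8.0 TPM for Cd68 and 17.6 ± 9.9 TPM for Cd5l. In WT L-AC livers Cd68 averaged 17.1 ± 5.4 TPM, beside Lyz2 at 20.3 ± 4.9, Cd5l at 18.0 ± 6.4 and Clec4f at 17.9 ± 5.2 TPM, and all 4 ranges overlapped. Gpnmb averaged 7.27 ± 8.81 TPM in KO L-AC and 3.39 ± 2.31 TPM in WT L-AC livers, and without KO L-AC replicate 3 the KO mean was 3.40 ± 1.93 TPM. Trem2 was last in both L-AC groups.

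**Figure D1:**
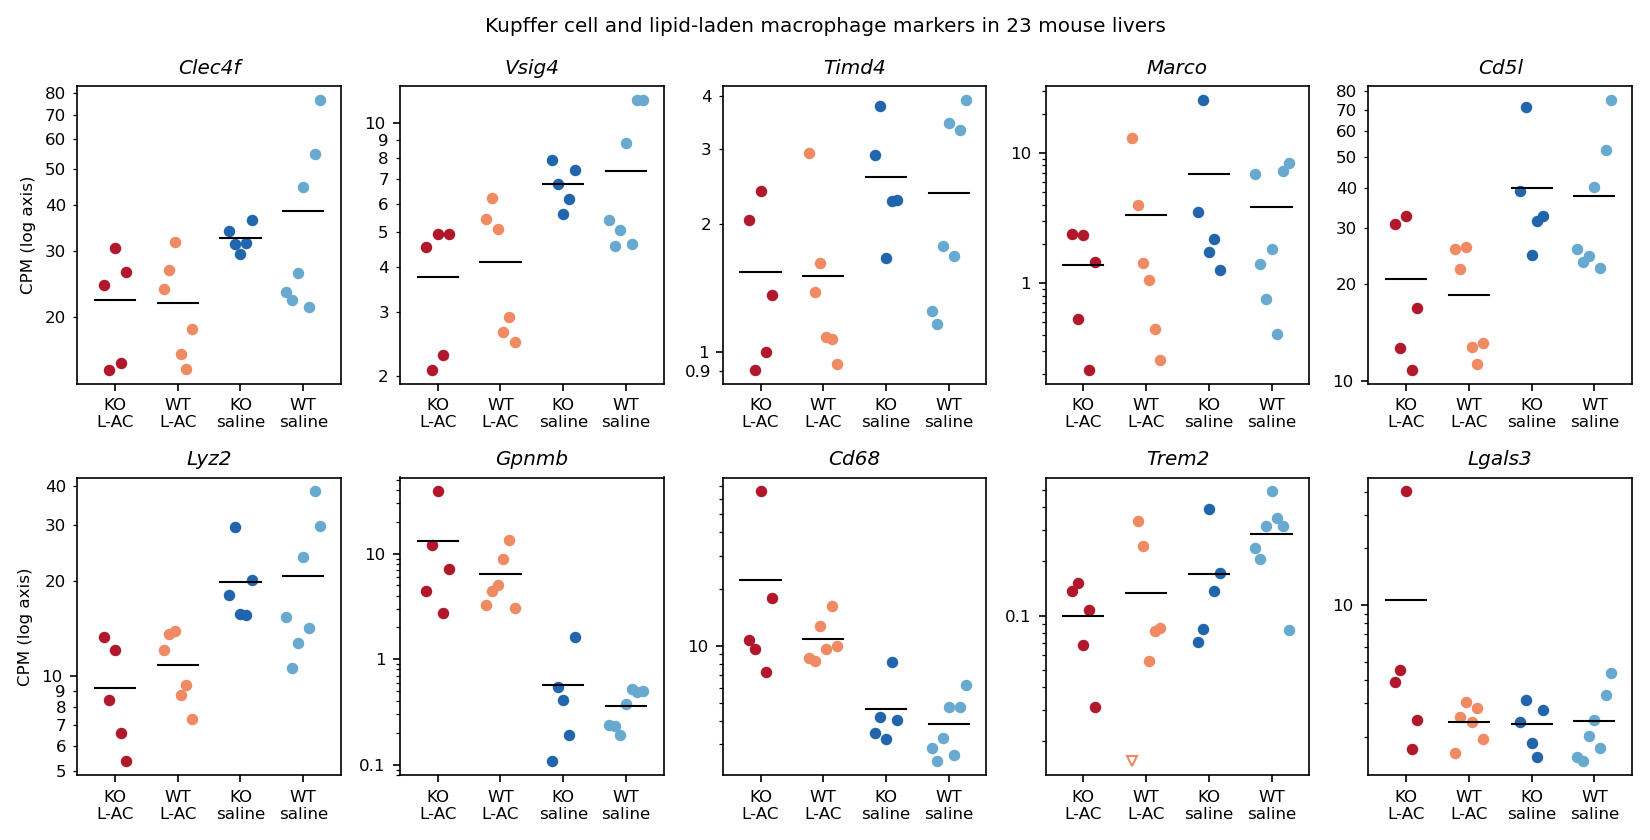
CPM of the 10 genes on a log axis, with 1 point per liver and a line at each group's mean (5 KO L-AC, 6 WT L-AC, 5 KO saline and 7 WT saline); the open triangle is the WT L-AC library with 0 Trem2 reads. Gpnmb lies higher in every L-AC liver than in every saline liver, and Lyz2 and Vsig4 lie lower in every KO L-AC liver than in every KO saline liver.

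The question of how L-AC moved these genes was put to each genotype in turn. In KO livers 3 of the 10 were higher under L-AC than under saline (Gpnmb, Cd68 and Lgals3) and 3 were lower (Vsig4, Cd5l and Lyz2), at an adjusted p under 0.05. Of all genes tested, 25.2% were higher and 23.6% lower in that comparison. In WT livers 2 of the 10 were higher (Gpnmb and Cd68) and 4 were lower (Clec4f, Vsig4, Cd5l and Lyz2), against 26.6% of all genes higher and 26.7% lower. The shares of the markers called are thus read against a liver in which about as many genes in all moved. The median log2 fold change of the 10 was -0.79 in KO and -0.74 in WT, beside -0.0054 and -0.0085 over all genes tested. In these bulk livers, fewer cells of a type and less RNA per cell cannot be told apart.

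**Figure D2:**
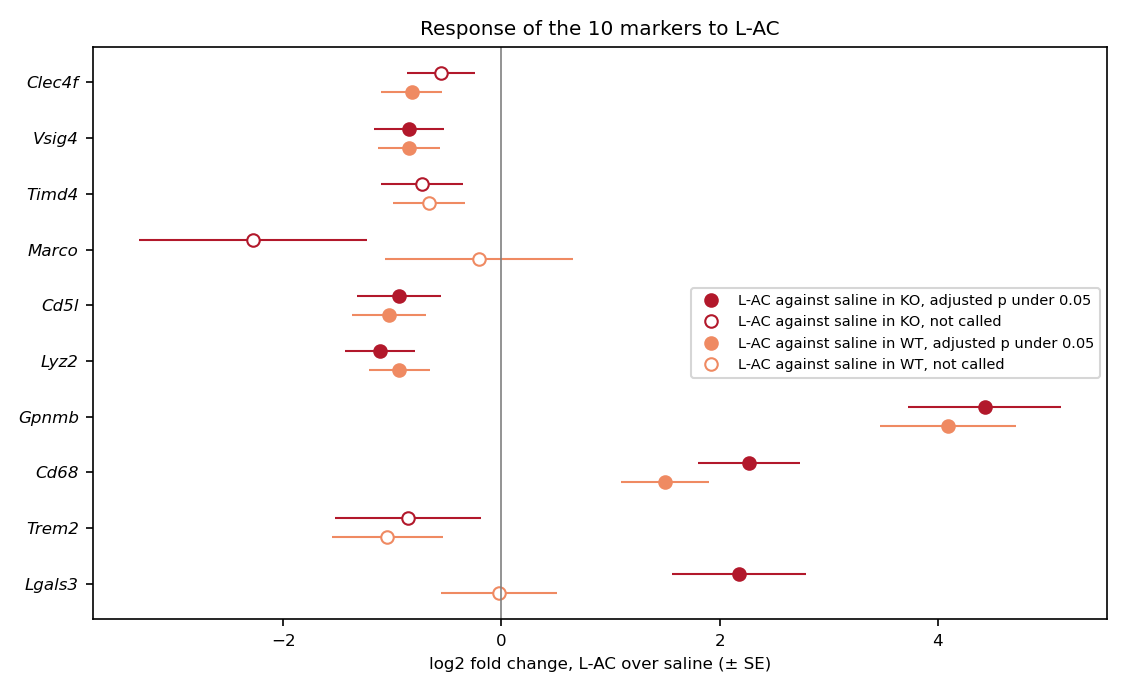
Log2 fold change of L-AC over saline with its standard error for each gene, in KO above and WT below; filled points passed an adjusted p under 0.05. Gpnmb (4.43 in KO, 4.09 in WT) and Cd68 (2.27 and 1.5) lie far to the right, the Kupffer cell markers lie left of 0, and Lgals3 is at 2.18 in KO and -0.02 in WT.

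Clec4f (mm10, chr6:83644542-83656116, minus strand) encodes a C-type lectin that in mice is largely restricted to Kupffer cells. It had 24.3, 14.4, 30.7, 15 and 26.4 CPM in KO L-AC livers and 33.9, 31.3, 29.6, 31.5 and 36.5 CPM in KO saline livers. It ran from 14.5 to 31.7 CPM in WT L-AC livers, with a median of 21.1, and from 21.2 to 76.8 CPM in WT saline livers, with a median of 26.2. The KO groups overlapped only through KO L-AC replicate 3, and the WT saline range was stretched by replicates 4, 6 and 7. Clec4f fell in WT livers, at a log2 fold change of -0.82 with SE 0.28 (adjusted p = 0.0163). Without WT saline replicate 7, which held the highest value, the log2 fold change was -0.56 with an adjusted p of 0.0604, so the call rests on that library. In KO livers the log2 fold change was -0.56 (95% interval -1.21 to 0.10, adjusted p = 0.148), and it was called when the 2 KO groups were fitted alone (adjusted p = 0.03).

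Vsig4 (chrX:96247203-96293438, minus strand) encodes a complement receptor that takes up C3b-coated particles. It had 4.54, 2.08, 4.94, 2.29 and 4.94 CPM in KO L-AC livers and 7.91, 6.79, 5.61, 6.16 and 7.43 CPM in KO saline livers. Every KO L-AC liver was below every KO saline liver. In WT L-AC livers it ran from 2.49 to 6.20 CPM (median 4.00) and in WT saline livers from 4.58 to 11.6 CPM (median 5.40), with overlap. It fell by a log2 fold change of -0.85 in KO (SE 0.32, adjusted p = 0.0342) and -0.84 in WT (SE 0.28, adjusted p = 0.0157). With age in the fit Vsig4 was no longer called in KO (adjusted p = 0.103), while the WT call stood under every library left out (highest adjusted p 0.0436). Those fits do not remove WT saline replicates 4, 6 and 7 together, which had 8.82, 11.6 and 11.6 CPM. WT saline replicates 1, 2, 3 and 5 had 5.40, 4.58, 5.05 and 4.63 CPM, inside the WT L-AC range. The KO call was also lost without KO saline replicate 1, 2 or 5 or KO L-AC replicate 2 or 4, with adjusted p between 0.0509 and 0.0889.

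Timd4 (chr11:46810799-46844333, plus strand) encodes the phosphatidylserine receptor of long-lived resident macrophages. It had 2.05, 0.907, 2.38, 1.0 and 1.36 CPM in KO L-AC livers and 2.90, 3.77, 1.66, 2.26 and 2.28 CPM in KO saline livers. WT L-AC livers ran from 0.937 to 2.93 CPM (median 1.23) and WT saline livers from 1.17 to 3.92 CPM (median 1.77). The ranges overlapped in both genotypes and neither difference was called. The log2 fold change was -0.73 in KO (95% interval -1.51 to 0.06, adjusted p = 0.112) and -0.66 in WT (95% interval -1.35 to 0.02, adjusted p = 0.0931). In WT L-AC livers replicate 1 was the highest, and without it the WT value was -0.97 with an adjusted p of 0.0164.

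Marco (chr1:120474538-120505084, minus strand) encodes a class A scavenger receptor that binds bacteria, and its levels varied widely from mouse to mouse. It had 2.39, 0.529, 2.35, 0.214 and 1.45 CPM in KO L-AC livers and 3.51, 25.7, 1.74, 2.18 and 1.27 CPM in KO saline livers. WT L-AC livers ran from 0.255 to 12.9 CPM (median 1.24) and WT saline livers from 0.405 to 8.41 CPM (median 1.83). A single library, KO saline replicate 2, stood above all the others, and WT L-AC replicate 1 stood above the rest of its group. The log2 fold change was -2.27 in KO (95% interval -4.46 to -0.09, adjusted p = 0.0753; 0.0434 with DESeq2) and -0.21 in WT (95% interval -2.00 to 1.59, adjusted p = 0.856). Without KO saline replicate 2 the KO value was -0.63, and without WT L-AC replicate 1 the WT value was -1.42, neither called.

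Cd5l (chr3:87357881-87371074, plus strand) encodes AIM, a secreted scavenger-receptor protein that tissue macrophages release. It had 30.8, 12.6, 32.7, 10.8 and 16.8 CPM in KO L-AC livers and 39.0, 71.6, 24.6, 31.5 and 32.7 CPM in KO saline livers. In WT L-AC livers it ran from 11.3 to 26.2 CPM (median 17.7) and in WT saline livers from 22.4 to 75.5 CPM (median 25.8). The lowest WT saline livers thus met the highest WT L-AC livers. Cd5l fell by a log2 fold change of -0.94 in KO, with SE 0.38 (adjusted p = 0.0464), and of -1.03 in WT, with SE 0.34 (adjusted p = 0.0142). The KO call sat close to the threshold and was lost in 8 of the 23 fits that left out 1 library each (highest adjusted p 0.185, without KO saline replicate 2, log2 fold change -0.62), with age in the fit (0.0801) and with no filter on low counts (0.0524).

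Lyz2 (chr10:117277541-117282272, minus strand) encodes the lysozyme of macrophages, monocytes and neutrophils. It had 13.3, 8.39, 12.1, 6.61 and 5.37 CPM in KO L-AC livers and 18.0, 29.6, 15.7, 15.7 and 20.1 CPM in KO saline livers. Each KO L-AC liver was below each KO saline liver. WT L-AC livers ran from 7.34 to 13.9 CPM (median 10.7) and WT saline livers from 10.6 to 38.5 CPM (median 15.3), with overlap. Lyz2 fell by a log2 fold change of -1.11 in KO (SE 0.32, adjusted p = 0.0064) and -0.94 in WT (SE 0.28, adjusted p = 0.00737). Among the 6 genes described so far it is the one called in both genotypes in all 23 fits that left out 1 library, with adjusted p up to 0.0242 in KO and 0.0254 in WT. Its near-identical neighbour Lyz1, whose reads a counter could split with it, had 2 to 29 reads per library, and Lyz2 174 to 1432. Vsig4 and Lyz2 were 2 of 10 genes whose KO L-AC livers all lay below the KO saline livers, as 15.5% of all genes did. In WT livers 0 of the 10 did so, against 12.1% of all genes.

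Gpnmb (chr6:49036518-49058182, plus strand), a glycoprotein of lipid-laden macrophages, showed the widest difference of the 10. It had 4.47, 12.1, 39.3, 2.72 and 7.19 CPM in KO L-AC livers and 0.107, 0.545, 0.415, 0.191 and 1.61 CPM in KO saline livers. It ran from 3.06 to 13.4 CPM in WT L-AC livers (median 4.77) and from 0.190 to 0.521 CPM in WT saline livers (median 0.377). No L-AC liver of either genotype overlapped a saline liver, and in counts this was 76 to 1138 reads in KO L-AC against 3 to 75 in KO saline, and 117 to 487 reads in WT L-AC against 6 to 24 in WT saline. Gpnmb rose 21.6-fold in KO, or 4.43 on the log2 scale with SE 0.70 (adjusted p = 1.98e-05), and 17.1-fold in WT, or 4.09 with SE 0.62 (adjusted p = 9.82e-06). Both ends of the KO comparison had a library that moved the size: the log2 fold change was 3.45 without KO L-AC replicate 3 and 5.39 without KO saline replicate 5. The call held in both genotypes in all 23 fits that left out 1 library.

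Cd68 (chr11:69664213-69666170, minus strand) encodes macrosialin, a lysosomal glycoprotein widely used to stain macrophages. It had 10.7, 9.60, 66.0, 7.29 and 17.9 CPM in KO L-AC livers and 3.44, 4.19, 3.19, 8.20 and 4.03 CPM in KO saline livers. The 2 groups met where KO L-AC replicate 4 lay below KO saline replicate 4. In WT L-AC livers it ran from 8.29 to 16.2 CPM (median 9.75) and in WT saline livers from 2.43 to 6.18 CPM (median 3.25), with no overlap. Cd68 rose 4.83-fold in KO, or 2.27 on the log2 scale with SE 0.47 (adjusted p = 0.000386), and 2.83-fold in WT, or 1.5 with SE 0.40 (adjusted p = 0.00342). Without KO L-AC replicate 3 the KO value was 1.30, closer to that of WT, and it was still called (adjusted p = 0.00186). Gpnmb alone of the 10 had all KO L-AC livers above the KO saline livers, as 17.1% of all genes did, and Gpnmb and Cd68 did so in WT, against 12.0% of all genes.

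Lgals3 (chr14:47373860-47386167, plus strand) encodes a galectin that phagocytes carry and that damaged endosomes recruit. It had 3.92, 4.53, 40.3, 1.72 and 2.44 CPM in KO L-AC livers and 2.4, 3.15, 1.84, 1.55 and 2.77 CPM in KO saline livers. In WT L-AC livers it ran from 1.63 to 3.07 CPM (median 2.47) and in WT saline livers from 1.48 to 4.33 CPM (median 2.02). A single liver, KO L-AC replicate 3, lay far above all 22 others, and the groups overlapped. Lgals3 was called higher in KO (log2 fold change 2.18, SE 0.61, adjusted p = 0.00542), but without KO L-AC replicate 3 the value was 0.43 with an adjusted p of 0.28, and limma-voom did not call it with all libraries (adjusted p = 0.105). In WT the log2 fold change was -0.02 (95% interval -1.14 to 1.09, adjusted p = 0.979).

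Trem2 (chr17:48346401-48352276, plus strand), the receptor by which lipid-associated macrophages sense lipids and apoptotic cells, was close to the limit of detection. It had 4, 4, 2, 3 and 1 reads in KO L-AC livers (0.136, 0.151, 0.069, 0.107 and 0.031 CPM) and 2, 2, 15, 5 and 8 reads in KO saline livers. WT L-AC livers had 0 to 16 reads (median 0.0838 CPM) and WT saline livers 4 to 17 reads (median 0.315 CPM). In WT L-AC replicate 1, 0 of 36597081 reads allows up to 0.083 CPM at 3 reads, as much as was measured in some other livers. The groups overlapped, and the log2 fold change was -0.86 in KO (95% interval -2.26 to 0.54, adjusted p = 0.299) and -1.05 in WT (95% interval -2.12 to 0.02, adjusted p = 0.0877). Trem2 was therefore not seen to rise beside Gpnmb, and at 0 to 17 reads per library the depth sets wide intervals. It was called lower in WT by limma-voom (adjusted p = 0.0341) and without WT saline replicate 7 or WT L-AC replicate 2 (0.0423 and 0.0128).

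Whether Ehhadh loss shifted these genes was asked under each treatment, and 0 of the 10 were called. Over all genes, 0.0141% were called between KO and WT under saline, 0.0141% under L-AC and 0% for the interaction of genotype and L-AC, which tests whether KO and WT respond differently. At an unadjusted p under 0.05 there were 0 of the 10 under saline, 2 under L-AC (Lgals3 and Cd68) and 1 in the interaction (Lgals3), beside 264, 643 and 320 of all genes. Under L-AC, Lgals3 was 2.14 higher in KO than in WT livers on the log2 scale (SE 0.57, unadjusted p = 0.00107, adjusted p = 0.49), Cd68 1.03 higher (SE 0.42, unadjusted p = 0.0229, adjusted p = 1) and Gpnmb 1.05 higher (SE 0.55, unadjusted p = 0.07, adjusted p = 1). Without KO L-AC replicate 3 these differences were 0.39, 0.07 and 0.06. Under saline the log2 differences of KO from WT ran from -0.64 for Trem2 to 0.80 for Marco. For Clec4f under saline the 95% interval of the difference was -0.85 to 0.36, and for Vsig4 -0.74 to 0.49. The interaction was 0.34 for Gpnmb (95% interval -1.60 to 2.27) and 0.77 for Cd68 (-0.50 to 2.04). DESeq2 and limma-voom also called 0 of the 10 in each of these 3 comparisons.

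Because several general macrophage genes were lower too, each gene was also set against the mean log2 level of Adgre1, Csf1r, C1qa, C1qb and C1qc in the same library, using log2(CPM + 0.5). The 5 genes are not themselves free of change, so this shows unequal change. That mean was 2.93 ± 0.47 in KO L-AC, 3.06 ± 0.45 in WT L-AC, 3.79 ± 0.38 in KO saline and 3.72 ± 0.67 in WT saline livers. Relative to it the Kupffer cell markers differed by less than 0.5 between L-AC and saline. The difference of L-AC from saline was 0.26 in KO and -0.03 in WT for Clec4f, 0.02 and -0.08 for Vsig4, 0.25 and 0.19 for Timd4, and -0.10 and -0.28 for Cd5l. For Lyz2 it was -0.24 in KO and -0.13 in WT, and for Marco -0.45 and 0.21. Among these 6 genes Cd5l in WT was the one whose groups did not overlap on this scale, at 0.97 to 1.22 in WT L-AC against 1.26 to 1.55 in WT saline livers. Gpnmb, in contrast, was 4.09 higher in KO and 3.49 higher in WT, and Cd68 2.59 and 2.08 higher, relative to the same genes. For these 2 genes the L-AC and saline livers did not overlap in either genotype on this scale. How many of all genes separate on this scale was not counted. Gpnmb ran from -1.03 to 1.88 in KO L-AC against -4.42 to -2.69 in KO saline livers, and Cd68 from 0.15 to 2.62 against -2.21 to -0.46. Lgals3 was 1.89 higher in KO, also with no overlap, and 0.71 higher in WT. In CPM, by contrast, the KO groups overlapped for Cd68 and for Lgals3. The mean of the 5 genes was lower under L-AC in each genotype, so an unchanged gene reads higher on this scale. Lgals3 itself had a WT log2 fold change of -0.02. Leaving out KO L-AC replicate 3 gave KO differences of 3.69 for Gpnmb, 2.21 for Cd68 and 1.31 for Lgals3. In saline livers Gpnmb lay below the added 0.5 CPM in 3 of 5 KO and 6 of 7 WT livers, so the offset holds its differences down; with 0.05 CPM added in its place they were 5.17 in KO and 4.52 in WT. The Marco difference in KO was -0.77 with that offset and -0.52 without KO L-AC replicate 3. Trem2 is left out here because it lay below 0.5 CPM in all 23 livers. These relative levels are a description, with no test.

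**Figure D3:**
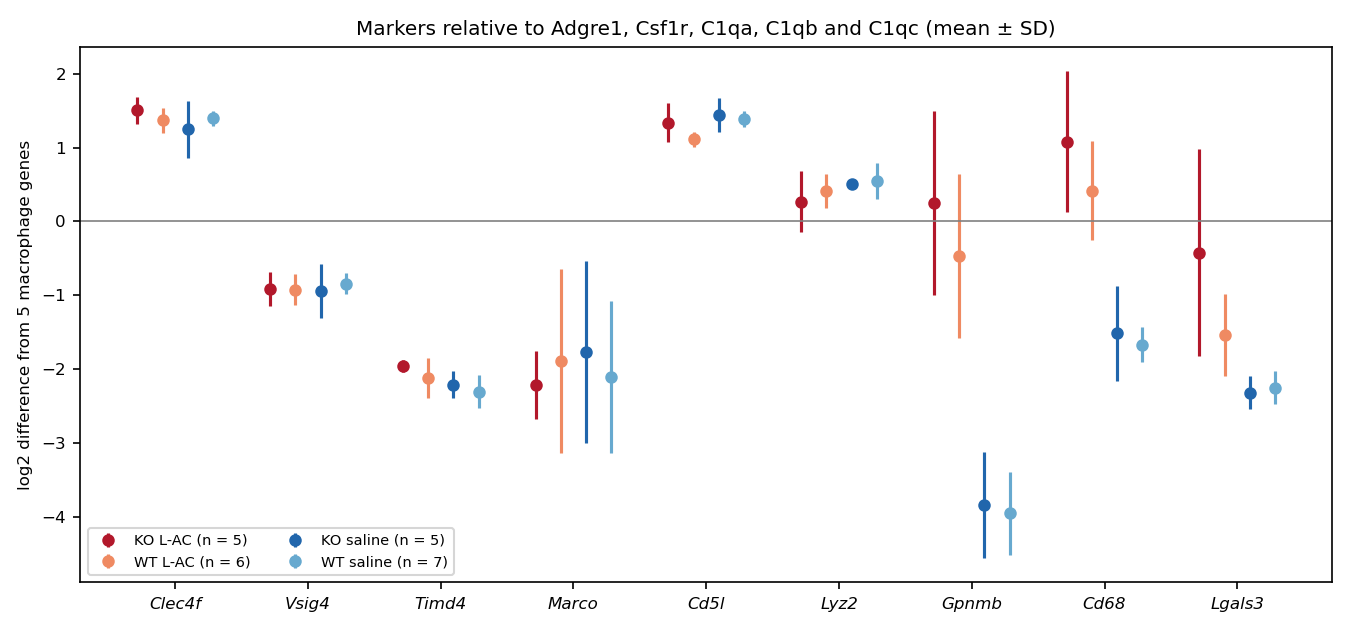
Log2(CPM + 0.5) of 9 genes minus the mean of 5 macrophage genes in the same liver, as mean ± SD over the mice of each group. The first 6 genes differ by less than 0.5 between L-AC and saline, with Cd5l clear of overlap in WT, while Gpnmb and Cd68 sit higher in the L-AC groups (Gpnmb at 0.25 in KO L-AC and -0.46 in WT L-AC, against -3.84 in KO saline and -3.95 in WT saline).

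Within groups, the 5 Kupffer cell markers Clec4f, Vsig4, Timd4, Marco and Cd5l varied together from liver to liver. Taking each library's log2(CPM + 0.5) as its deviation from its group mean, the 10 pairs among them had Pearson r of 0.52 to 0.93 over the 23 libraries, with a median of 0.81 (median Spearman rho 0.82). Among the 5 other genes the 10 pairs had r of -0.20 to 0.79, with a median of 0.29, and the 25 pairs across the sets -0.34 to 0.86, with a median of 0.42. Without KO L-AC replicate 3 these medians were 0.80, 0.20 and 0.35. All points share library depth and the makeup of the tissue piece, so the values are descriptions. The genes most like each marker, by r of log2 CPM deviations over 23 libraries, were Siglec1 (0.94), Csf1r (0.93) and C1qa (0.93) for Clec4f, and Clec4f (0.92), C1qb (0.90) and Cfp (0.89) for Vsig4. For Timd4 they were Cfp (0.91), C1qc (0.90) and Pirb (0.90), and for Marco Adgre1 (0.86), Apbb1ip (0.83) and Fyb (0.83). Cd5l was most like Adgre1 (0.96), C1qc (0.94) and Itgal (0.93), and Lyz2 most like Pirb (0.93), Itgal (0.91) and Ncf1 (0.90). These are known as genes of macrophages or other leukocytes. Gpnmb was most like Nckipsd (0.79), Anxa3 (0.78) and Plat (0.76), and Cd68 most like Apobr (0.89), Serpinb6a (0.86) and Slc7a11 (0.86). Lgals3 was most like Hn1 (0.88), Rnh1 (0.87) and Hid1 (0.86). Without KO L-AC replicate 3 these values were 0.56, 0.43 and 0.43 for Lgals3, which was then most like Adap1 (0.88), Clec10a (0.87) and H2-Aa (0.83). Over the same 22 libraries Gpnmb was most like Mir7654 (0.77), Fbn1 (0.76) and Nckipsd (0.73), and Cd68 most like Serpinb6a (0.78), Prrg4 (0.76) and Apobr (0.75). The lists of the Kupffer cell markers, Lyz2, Cd68 and Trem2 kept 2 or 3 of their 3 genes. That of Gpnmb kept 1 and that of Lgals3 kept 0. Over all 23 libraries Trem2, at its few reads, was most like Grid1 (0.79), Rbms3 (0.76) and Fmo1 (0.75).

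**Figure D4:**
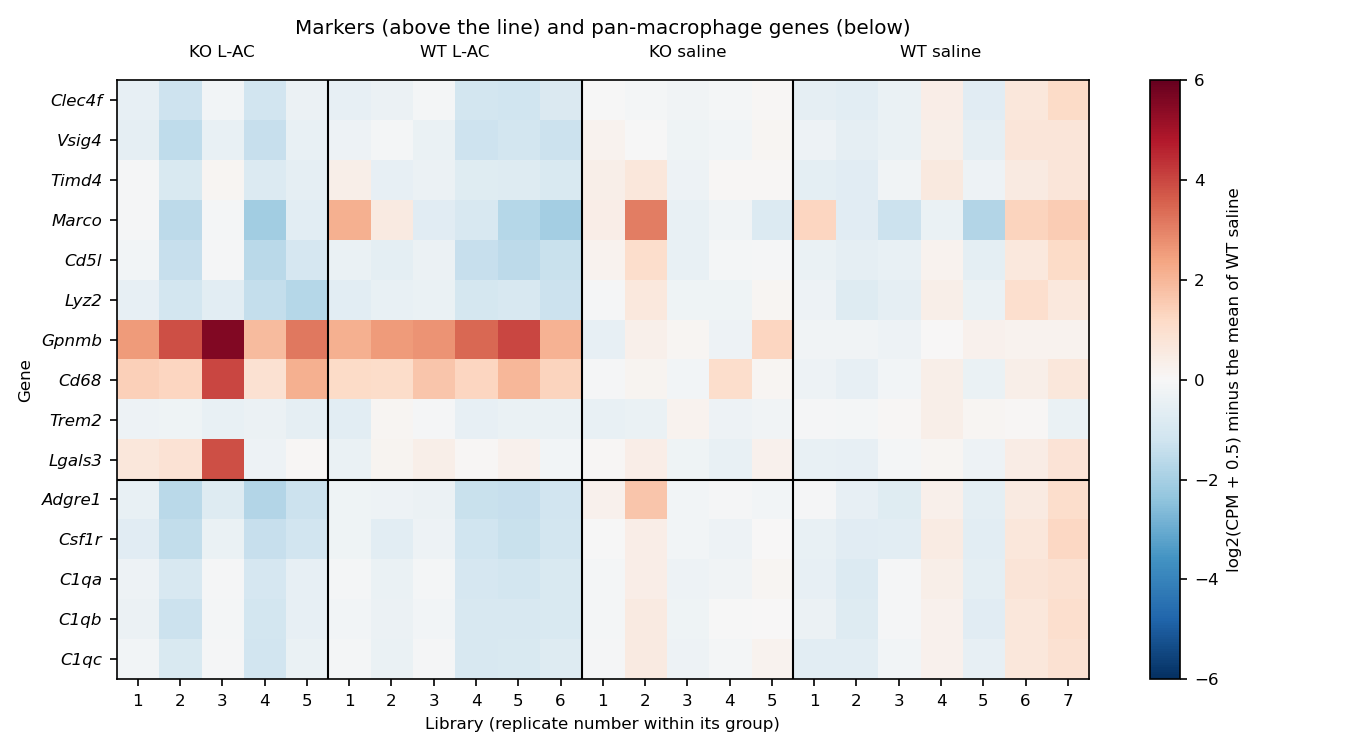
Log2(CPM + 0.5) of each library minus the WT saline mean, for the 10 markers above the line and 5 macrophage genes below it; columns are the 23 livers by group. The 6 upper markers and 5 macrophage genes are paler or bluer in KO L-AC replicates 2 and 4 and WT L-AC 4 to 6. In those livers Gpnmb is red and Cd68 a paler red. Lgals3 is deep red in KO L-AC replicate 3 only.

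Other genes of macrophage identity were then counted. Of 15 pan-macrophage genes, 7 fell and 1 rose in KO, and 12 fell and 1 rose in WT, with a median log2 fold change of -0.71 in each. The share that fell was 46.7% in KO and 80.0% in WT, against 23.6% and 26.7% of all genes. Aif1, which encodes the actin-binding IBA1, fell by log2 fold changes of -1.84 in KO and -2.19 in WT. The riser was Cd14, the lipopolysaccharide co-receptor, which averaged 23.3 ± 16.7 CPM in KO L-AC and 14.3 ± 10.5 CPM in WT L-AC livers, against 1.92 ± 0.56 CPM in KO saline and 1.83 ± 0.83 CPM in WT saline livers (log2 fold change 3.62 in KO and 2.96 in WT). With other settings, or 1 library left out, 3 to 12 of the 15 fell in KO and 3 to 13 in WT. At a threshold of 0.01, 3 of the 15 fell in each genotype. Of all 14196 genes, 2327 then fell in KO and 2819 in WT, so the WT share was near that of all genes. With age in the fit 4 of the 15 fell in KO, where 3011 of the 14196 genes fell. Their summed level ran from 69.4 to 161.5 CPM in KO L-AC livers against 158.0 to 372.2 CPM in KO saline livers, and from 75.1 to 123.0 CPM in WT L-AC livers against 153.9 to 342.6 CPM in WT saline livers. Apart from KO L-AC replicate 3, each L-AC liver was below each saline liver of its genotype. Of 14 other Kupffer cell identity genes, 4 fell and 3 rose in KO, and 5 fell and 4 rose in WT, with medians of -0.17 and 0.04. These shares (28.6% lower and 21.4% higher in KO, 35.7% and 28.6% in WT) lay within 10 percentage points of those of all genes. Slc40a1, the iron exporter ferroportin, fell (log2 fold change -1.43 in KO, -1.11 in WT), as did the inhibitory receptor Pilra (-1.52 and -1.74). Hmox1, the heme oxygenase, rose in KO (1.30) and WT (1.10). Which cells of the whole liver gave the reads of these lists was not tested.

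Genes of the lipid-associated state moved both ways, while those of TREM2 signalling leaned lower. Of 18 other lipid-associated macrophage genes, 8 rose and 4 fell in KO, and 7 rose and 4 fell in WT, with medians of 0.19 and 0.08. The share that rose was 44.4% in KO and 38.9% in WT, against 25.2% and 26.6% of all genes. Plin2, the lipid droplet coat protein, rose (log2 fold change 2.68, SE 0.15 in KO and 2.54, SE 0.13 in WT) and averaged 6572 ± 1187 CPM in KO L-AC and 6147 ± 629 CPM in WT L-AC livers, against 1024 ± 196 CPM in KO saline and 1058 ± 134 CPM in WT saline livers. Anxa5, which binds phosphatidylserine, rose by 2.35 in KO and 2.06 in WT. The lysosomal genes Ctsd (0.55 and 0.51) and Lipa (0.81 and 0.88) also rose; Plin2, Ctsd and Lipa are known to be expressed in hepatocytes as well. Among the genes that fell was Atp6v0d2, a proton pump subunit (log2 fold change -3.37 in KO, -3.56 in WT). Of 7 tested TREM2 signalling partners, 3 fell and 1 rose in each genotype, and the riser alone had a positive fold change. The medians were -0.57 in KO and -0.58 in WT. The shares were 42.9% lower and 14.3% higher in each, against 23.6% and 25.2% of all genes in KO and 26.7% and 26.6% in WT. Tyrobp, which encodes the adaptor DAP12 that Trem2 needs, fell (-0.84 in KO, -1.04 in WT), and so did the sheddase Adam17 (-0.56 and -0.58), while Adam10 rose (0.17 and 0.25). The Adam10 call in KO was lost under 20 of 30 other settings, counting each library left out, and that of Tyrobp under 3 (age in the fit, and without KO L-AC replicate 4 or 5; highest adjusted p 0.0636). Of the 4 MiT/TFE factors, Tfeb fell (-0.54 and -0.68) and the other 3 were not called. That was 25.0% lower in each genotype, near the share of all genes.

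Of 12 scavenger and apoptotic cell receptors and ligands, 3 rose and 3 fell in KO, and 3 rose and 4 fell in WT. That is 25.0% each way in KO, and 25.0% higher and 33.3% lower in WT, close to the shares of all genes. Scarb1, the high-density lipoprotein receptor, fell (log2 fold change -1.58 in KO, -1.37 in WT), and Pros1, a bridging ligand for dying cells, rose (1.06 and 1.11). Whole liver was sequenced, so the cells that gave the reads of the genes in this paragraph are not known. Of 9 LXR targets, 3 rose and 4 fell in each genotype, with Lpcat3 up (0.85 in both) and the sterol transporter Abcg5 down (-1.59 and -1.39). Those shares were 33.3% higher and 44.4% lower, against 25.2% and 23.6% of all genes in KO and 26.6% and 26.7% in WT. Of 11 tested niche and recruitment signals, 2 rose and 3 fell in KO, and 3 rose and 3 fell in WT. That was 18.2% higher and 27.3% lower in KO, and 27.3% each way in WT. Bmp10, a ligand of the endothelial receptor ALK1, rose (1.20 and 1.67), while the chemokine Cxcl10 (-2.09 and -2.68) and Csf1, the macrophage growth factor (-0.52 and -0.56), fell. Of 10 monocyte markers, 1 rose and 2 fell in KO, and 1 rose and 3 fell in WT. The riser was Chil3 (2.25 and 2.33), at 0 to 46 reads per library, and Cx3cr1 fell (-1.35 and -1.68).

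**Figure D5:**
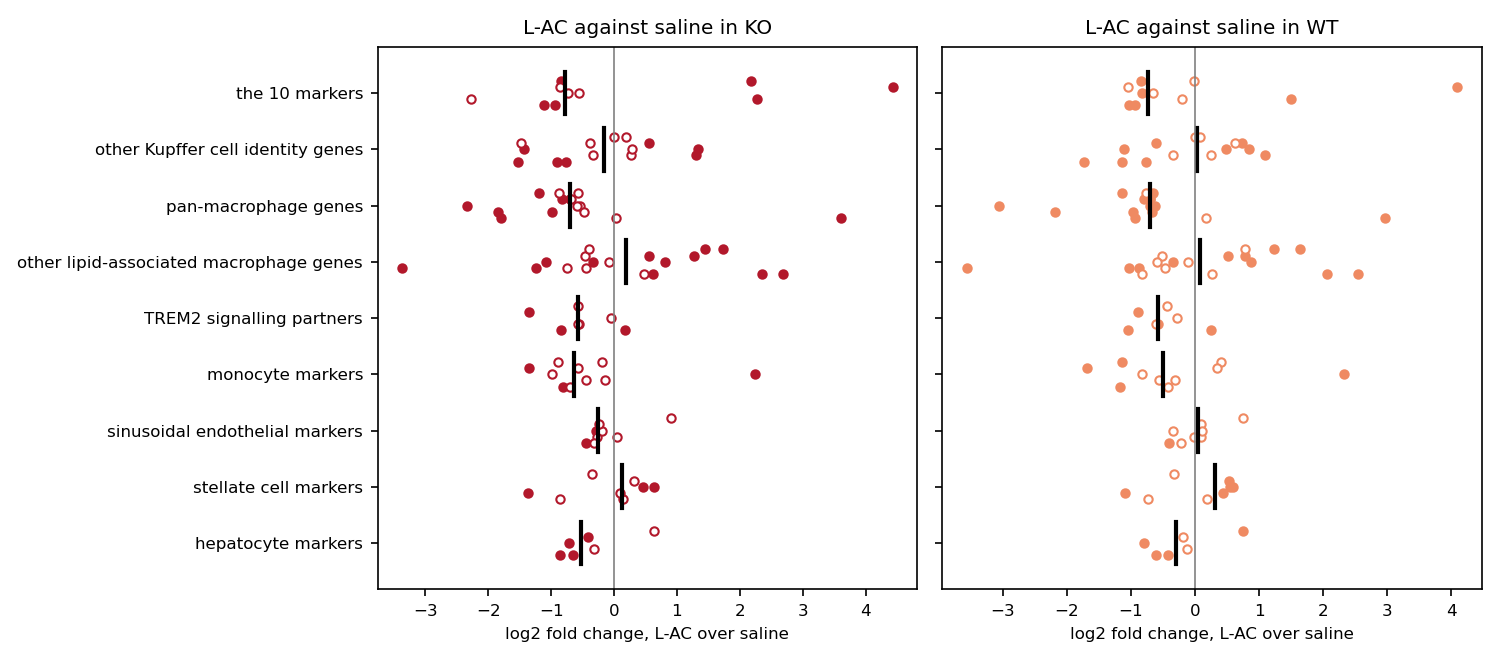
Log2 fold changes of L-AC over saline for single genes of 9 lists (points; filled when the adjusted p was under 0.05) with each list's median (bar), in KO on the left and WT on the right. Most pan-macrophage genes lie left of 0 with Cd14 far to the right, while the lipid-associated list spreads to both sides.

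Markers of other cell types were read in the same libraries. Their shares called are read against 25.2% of all genes higher and 23.6% lower in KO, and 26.6% and 26.7% in WT. Sinusoidal endothelial markers summed to 167.2 to 192.4 CPM in KO L-AC and 173.1 to 212.0 CPM in WT L-AC livers, against 187.0 to 240.9 CPM in KO saline and 146.7 to 254.3 CPM in WT saline livers. Of these 8 genes 2 fell in KO (Clec4g and Stab2, 25.0%) and 1 in WT (Clec4g, 12.5%). The Clec4g call was lost under 6 of 30 settings in KO (highest adjusted p 0.104, without KO L-AC replicate 5) and 4 in WT (0.072, without WT saline replicate 7), and the Stab2 call under 7 (0.0862, without KO saline replicate 2), including without KO L-AC replicate 3. With age in the fit 0 of the 8 were called in KO. Of 8 stellate cell markers 2 rose and 1 fell in KO, and 4 rose and 1 fell in WT, with sums of 159.3 to 210.9 CPM in KO L-AC and 184.2 to 236.0 CPM in WT L-AC, against 90.4 to 220.7 CPM in KO saline and 120.2 to 195.0 CPM in WT saline livers. Of 6 hepatocyte markers 4 fell in KO, and 3 fell and 1 rose in WT, with Ttr down by log2 fold changes of -0.86 and -0.62. The hepatocyte sum was 24690 to 47830 CPM in KO L-AC and 36780 to 46700 CPM in WT L-AC, against 51330 to 61500 CPM in KO saline and 47060 to 57990 CPM in WT saline livers. Of 6 tested dendritic cell markers 3 fell in KO, and 3 fell and 1 rose in WT, with H2-Ab1 at -1.26 and -1.37. Of 5 cholangiocyte markers Spp1, also on the lipid-associated list, fell in both genotypes (-1.24 and -0.88), a call lost without KO saline replicate 4 in KO and without WT L-AC replicate 1, 3 or 4 or WT saline replicate 3 in WT. Of 3 tested lymphocyte markers 1 rose and 1 fell in KO (33.3% each), and 1 rose and 2 fell in WT (33.3% and 66.7%). Their sums were 0.81 to 4.78 CPM over the 23 livers. The 4 tested neutrophil markers had 0 calls in the main edgeR fit in either genotype. At an unadjusted p under 0.05 there was 1 in KO and 0 in WT. In KO 1 was called lower by DESeq2 and by limma-voom. The main test also called 1 lower in KO with DESeq2 size factors, with the filter of 1 CPM in 5 libraries and with the KO groups alone. With no filter on low counts 1 gene of the list was called higher in WT. The list summed to 0.82 to 3.71 CPM. KO L-AC replicate 3, which stood apart for Gpnmb, Cd68 and Lgals3, had an endothelial sum of 172.6 CPM, inside the range of its group. Its monocyte sum of 9.91 CPM and its pan-macrophage sum of 161.5 CPM were each the highest of its group. The endothelial, monocyte and pan-macrophage sums also each lay inside the WT saline range. The part of these other cell types in the marker differences was not tested. Of the 137 tested genes of all these lists, edgeR called 0 between KO and WT livers under saline, under L-AC or for the interaction, with 3, 5 and 2 at an unadjusted p under 0.05; DESeq2 and limma-voom also called 0.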

How the data were processed

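PolyA RNA of whole liver from 23 mice was sequenced as single-end 100-nucleotide reads on an Illumina HiSeq 2500, per the labels' protocols. The authors deposited raw read counts per gene and library, made with featureCounts 1.4.4 over exons of UCSC mm10 gene models, taking primary alignments on either strand and counting a read once for each gene under it, per the file headers. Reads were aligned with STAR 2.4.0 to mm10 (GRCm38), per the submitters' processing notes. The other column used, summed exon length in bases, is also as the authors deposited it; exons of the 10 genes share bases with 0 other genes in these models.

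Groups came from the labels, which give no replicate numbers, batch or date; mice were numbered in accession order, so equal numbers do not pair mice. No 2 replicates agreed within sampling noise (lowest chi-square per degree of freedom 44.05 over 56 pairs). Adgre1 was found under an older symbol. Genes were kept by filterByExpr by group (minimum count 10, minimum total 15), scaled by TMM and tested with edgeR 4.0.16 (quasi-likelihood F test, R 4.3.3), with the 4 group means in a single model of the 23 libraries. Adjusted p-values are Benjamini-Hochberg over 14196 genes, two-sided, called under 0.05. SE is the size of the log2 fold change over the square root of F. CPM is over the TMM-scaled library size and TPM from counts and exon length. Totals were 24521896 to 48095959 reads. The fit was tested on simulated counts with known changes.

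The 10 genes, the lists and the tests were chosen with earlier results of these data known. Lists were named by counts and medians, with no set test. Text names all 10 genes and, per list, up to 3 called genes with the smallest p in each L-AC comparison. One list gene that the rule names is not reported here. Alternatives were DESeq2 1.42.0, limma-voom (limma 3.58.1), DESeq2 size factors, other filters, age as a covariate, a stricter threshold of 0.01, fits of the compared groups alone and each library left out.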

Additional observations from a re-analysis of the deposited data

Results flagged for a closer look

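In 7 of the 40 combinations of gene and group, the highest liver lay farther from its group than the 95% critical value of Dixon's gap test. For independent, normally distributed values chance alone gives about 1 in 20. These were CPM without a log, and the same library recurs among the flags, so that rate need not hold here. KO L-AC replicate 3 was high for Lgals3 (40.3 CPM, next 4.53; gap 0.927 of the range), Cd68 (66.0 CPM, next 17.9; gap 0.82) and Gpnmb (39.3 CPM, next 12.1; gap 0.745). Among KO saline livers, replicate 2 was high for Marco (25.7 CPM, next 3.51; gap 0.908) and replicate 4 for Cd68 (8.20 CPM, next 4.19; gap 0.8). Among WT L-AC livers, replicate 1 was high for Marco (12.9 CPM, next 4.00; gap 0.705) and Timd4 (2.93 CPM, next 1.62; gap 0.66).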

How the results depend on the processing

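Lyz2, Gpnmb and Cd68 were called in both genotypes, in the same direction, under every alternative and in all 23 fits that left out 1 library. In WT livers the count of the 10 genes called under L-AC was 6 to 7 with 1 library left out and with each other setting but a threshold of 0.01, where it was 3; in KO livers it was 4 to 7. In the 3 comparisons of genotype it was 0 throughout. Of 1532 alternative fold changes 82 turned sign, none of a called value. Among those given above, Lgals3 under L-AC in WT was 0.018 by limma-voom and the Gpnmb interaction -0.16 with age in the fit. With 1 library left out, Marco under L-AC in WT ran from -1.42 to 0.12 and Lgals3 there from -0.11 to 0.19. Under saline, KO minus WT ran from -0.35 to 0.020 for Clec4f, -0.22 to 0.019 for Vsig4 and -0.85 to 1.13 for Marco. The interaction ran from -0.65 to 1.30 for Gpnmb and -0.20 to 1.09 for Cd68. The cause was not tested. The smaller offset, and TPM, relative levels and likeness without KO L-AC replicate 3, were chosen after the data were seen. The lists and their named genes were also recounted under these settings after the data were seen, and 146 of 1984 recounts differed by over 1.5 times. Trem2 was dropped by the filter of 1 CPM in 5 libraries and has no value there. No paired analysis was possible because the labels number no replicates. Depth limits Trem2 and, in saline livers, Gpnmb.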
